A study of Mus musculus with 15 samples.

Results

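Amino acid and neurotransmitter transporters of the solute carrier families SLC1, SLC3, SLC6, SLC7, SLC17, SLC32, SLC36 and SLC38 were read in mouse tumours that model small cell lung cancer, a neuroendocrine cancer. Members were all genes whose symbol joins 1 of these family names to a number (a paralog letter was allowed, as in Slc6a20a), and the brightest probe set stood for each gene. The arrays measured 65 of the 70 such genes in the RefSeq gene table, of 18193 genes in all. The others were not analysed here. Of the 65 members 34 had several probe sets, and 130 probe sets covered the families.

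The arrays held 3 groups. Rb/p53 tumours (n = 10) carried deleted Rb and p53 (Rb Δ/Δ; p53 Δ/Δ). Rb/p53/p130 tumours (n = 3) lacked these and p130 as well (p130 Δ/Δ). In both genotypes Cre recombinase was delivered to the lung by adenovirus through the nose, and tumours were dissected 8 to 12 months later in the first genotype and 6 months later in the second, so genotype and age of the tumour cannot be told apart. Normal lungs (n = 2) came from wild-type adult mice without tumours, and they served both tumour genotypes as the control. The labels do not say that tumours came from separate mice, nor name the cell type in which Cre acted, and the p-values below reflect no more than the spread among the arrays at hand.

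Transporters of the SLC7 family carry cationic and large neutral amino acids, and many of them work only as a light chain joined to a heavy chain of the SLC3 family. SLC1 holds the high-affinity glutamate transporters, SLC6 the sodium- and chloride-coupled carriers of GABA, glycine, monoamines and neutral amino acids, and SLC38 and SLC36 the sodium-coupled and proton-coupled carriers of small neutral amino acids such as glutamine and proline. SLC17 and SLC32 load glutamate, nucleotides or GABA into vesicles. In neuroendocrine cells and neurons these families feed growth, stop transmission at the synapse and fill secretory vesicles, and dividing tumour cells are known to raise the uptake of glutamine and cystine.

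Against normal lung, Rb/p53 tumours showed higher levels of 10 of the 65 members and lower levels of 15 (limma, Benjamini-Hochberg adjusted p under 0.05 over 45037 probe sets), while 18.3% of all genes were called higher and 20.5% lower. Rb/p53/p130 tumours showed 9 members higher and 13 lower, where 15.3% of all genes were called higher and 15.6% lower. The shares of members called, in either direction, lay near those of all genes (38.8% and 30.9%). The median log2 change over the 65 members was -0.09 in Rb/p53 tumours, beside -0.02 over all genes, and -0.05 in Rb/p53/p130 tumours, beside -0.02. Called higher in both tumour genotypes were 9 members and lower in both were 11, from comparisons that share the same 2 lungs. Arrays of the tumours and the lungs did not overlap for 27 members in Rb/p53 tumours (38.4% of all genes) and for 39 in Rb/p53/p130 tumours (66% of all genes).

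**Figure D1:**
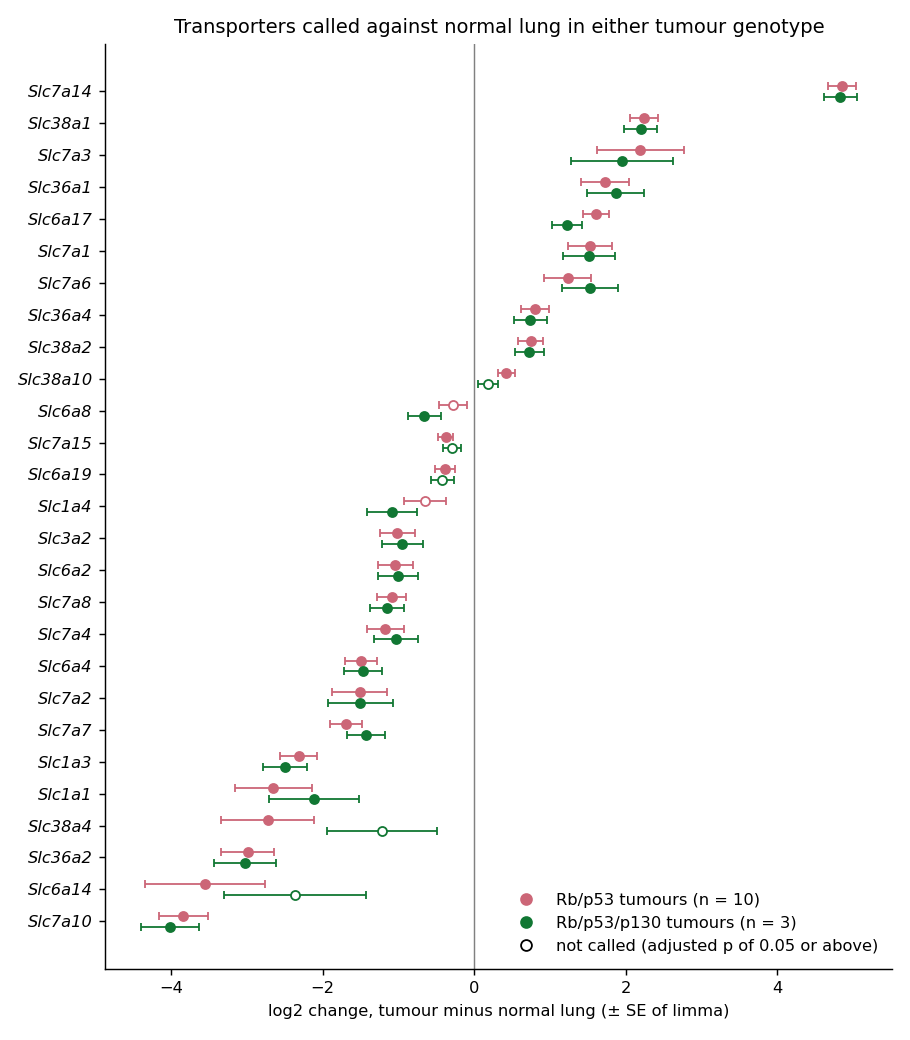
Log2 change of each member called in at least 1 comparison with normal lung (horizontal axis, tumour minus lung, bars ± SE of limma), for Rb/p53 tumours in pink and Rb/p53/p130 tumours in green, with open circles where the change was not called. Slc7a14 stands at 4.85 and 4.83, and Slc7a10 at -3.84 and -4.01.

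Of the 65 members, 53 had a mean log2 level above 5.05 in at least 1 group, and 12 had none. This floor is the highest lower quartile of the 15 arrays, and a group mean at or below it is called here not shown above background. Above it lay 49 members in the lungs, 53 in the Rb/p53 group and 51 in the Rb/p53/p130 group.

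The whole tumours carried the markers of their label. All 11 measured neuroendocrine markers (such as Chga) were higher in both genotypes than in lung, and the list's mean log2 level was 5.44 to 5.93 in lungs and 11.15 to 12.17 in Rb/p53 tumours. Many markers of the cells of lung were lower, though not evenly over cell types. Of 12 endothelial markers 11 fell in both genotypes. The mean log2 level of that list was 11.18 to 11.84 in lungs, 6.89 to 8.97 in Rb/p53 tumours and 7.61 to 7.87 in Rb/p53/p130 tumours. Of 9 alveolar type 1 markers 9 fell in Rb/p53 tumours, with a mean log2 level of 8.07 to 10.59 beside 12.64 to 12.93 in lungs. Of 9 alveolar type 2 markers 7 fell in Rb/p53 and 4 in Rb/p53/p130 tumours, and of 8 club cell markers 3 and 1 fell. Of 11 macrophage markers 4 rose and 4 fell in Rb/p53 tumours, and 2 rose and 5 fell in Rb/p53/p130 tumours. In such bulk samples fewer cells of a type and less RNA per cell cannot be told apart. The lungs also differed in an RNA quality measure: the 3' minus 5' log2 difference of the Gapdh control probe sets was 0.718 and 0.877 in lungs, -0.0688 to 0.357 in Rb/p53 tumours and -0.032 to 0.0813 in Rb/p53/p130 tumours. With this difference as a covariate, whose values in lungs and tumours do not overlap, 6 members were called in the Rb/p53 group and 3 in the Rb/p53/p130 group. Of the calls made without it, those of Slc38a1, Slc7a10 and Slc7a14 were kept in both groups and that of Slc6a17 in the Rb/p53 group. The rest of the 6 had not been called without the covariate. The part of RNA quality and of lung cell content in the changes below was not tested. Of single arrays left out, normal lung 2 gave the lowest counts, where 17 members were called in the Rb/p53 group and 12 in the Rb/p53/p130 group.

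All 5 members of the cationic amino acid branch of SLC7, best known for carriers of arginine, lysine and ornithine, were called in both tumour genotypes, 3 higher and 2 lower. Slc7a14, a lysosomal member of this branch known from brain and retina, moved most. Its log2 level was 4.72 and 5.05 in the 2 lungs, ran from 9.33 over a median of 9.65 to 10.13 in Rb/p53 tumours, and was 9.75, 9.70 and 9.69 in Rb/p53/p130 tumours. Every tumour lay far above both lungs, where the gene was not shown above background. The log2 change was 4.85 ± 0.19 (SE, limma adjusted p = 3.37e-10) in Rb/p53 tumours, at least 25.7-fold, and 4.83 ± 0.22 (adjusted p = 2.97e-09) in Rb/p53/p130 tumours, at least 25.4-fold. A second, dimmer probe set of Slc7a14 read 4.04 and 4.14 in lungs, below the floor, 5.49 to 6.78 in Rb/p53 tumours and 5.28 to 5.35 in Rb/p53/p130 tumours, the last only just above it. For the brighter probe set of Slc7a14 the SD over 10 Rb/p53 tumours was 0.27, at the 46.6th percentile of the SDs of all genes.

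**Figure D2:**
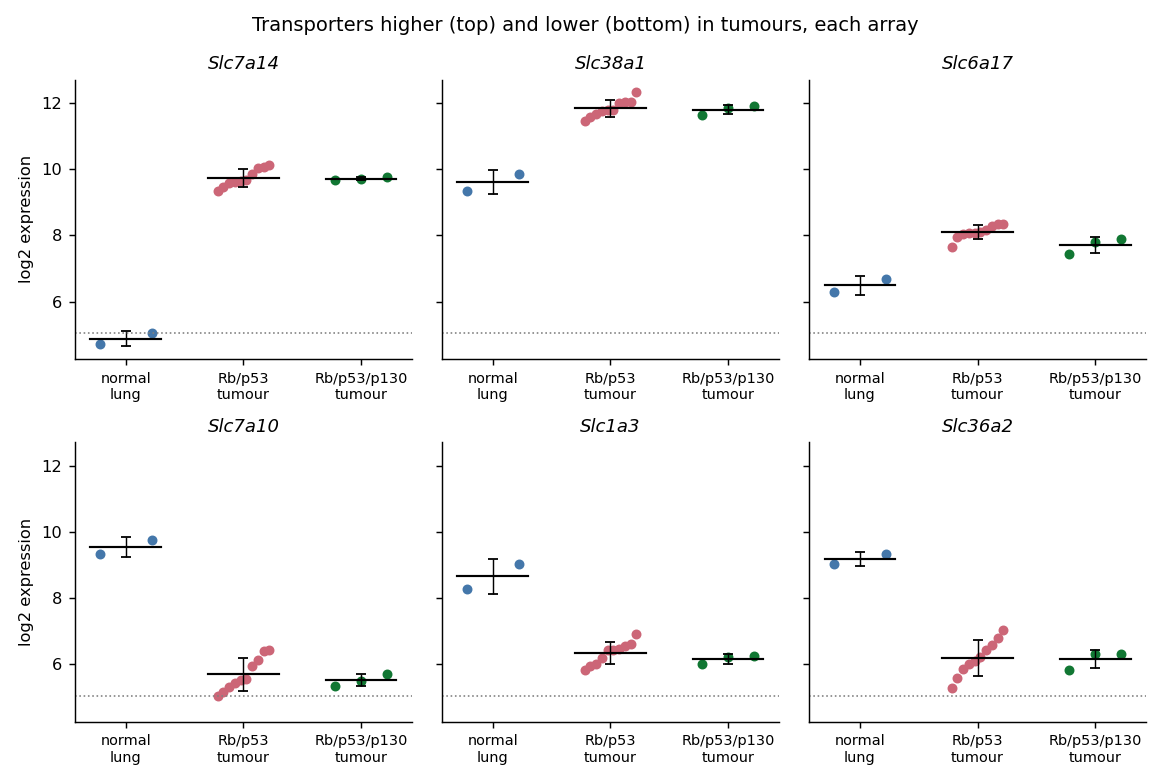
Log2 expression (vertical axis) on each array of 3 members higher in tumours (top) and 3 lower (bottom), for normal lung (n = 2), Rb/p53 tumours (n = 10) and Rb/p53/p130 tumours (n = 3). Points are arrays, horizontal bars are group means, error bars are SD and the dotted line is the floor of 5.05. In all 6 panels the tumours and the lungs do not overlap.

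The window around the start of Slc7a14 is shown because this member rose most. It lies at chr3:31310270-31310569 on the minus strand (RefSeq, GRCm38.p6), 250 bases before and 50 after the start of the gene, and capitals mark an E-box, CACGTG, at bases 182 to 187 of the window. E-boxes are bound by MYC and by MITF-family factors of lysosomal genes, among others. Searched on both strands, the motif is in 7.15% of 32851 such windows of all genes and in 9 of 70 member windows (12.9%). Per gene, these are 8.09% of all genes with a window and 9 of 48 members (18.8%).
Slc7a14 promoter: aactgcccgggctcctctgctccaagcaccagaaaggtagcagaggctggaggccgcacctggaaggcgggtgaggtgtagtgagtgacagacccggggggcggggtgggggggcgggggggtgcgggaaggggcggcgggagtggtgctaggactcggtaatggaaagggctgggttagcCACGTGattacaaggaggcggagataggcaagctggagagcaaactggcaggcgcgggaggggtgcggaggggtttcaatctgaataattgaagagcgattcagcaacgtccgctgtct

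Slc7a1, the widespread arginine carrier of dividing cells, rose by a log2 change of 1.53 ± 0.29 in Rb/p53 tumours (2.89-fold, limma adjusted p = 0.000828) and by 1.52 ± 0.34 in Rb/p53/p130 tumours. The log2 levels were 9.67 and 9.45 in lungs, from 10.40 over a median of 11.18 to 11.98 in Rb/p53 tumours, and 11.25, 10.83 and 11.15 in Rb/p53/p130 tumours, with no overlap. Slc7a3, a cationic carrier of the brain, rose by 2.19 ± 0.57 (4.57-fold, adjusted p = 0.00852) and 1.95 ± 0.68 (adjusted p = 0.0477). Its log2 levels were 6.17 and 6.15 in lungs, from 7.07 over 8.08 to 9.86 in Rb/p53 tumours, and 9.00, 7.90 and 7.43 in Rb/p53/p130 tumours. Without normal lung 1 or 2 neither Slc7a3 call held (adjusted p = 0.0740 and 0.0736 in the Rb/p53 group, 0.174 and 0.165 in the Rb/p53/p130 group). The second call was lost in 14 of 25 alternatives, among them both other normalisations and the fits without Rb/p53 tumour 1, 4, 5, 6, 7 or 8 or Rb/p53/p130 tumour 11 or 12.

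Slc7a2, a carrier of arginine in macrophages and liver, was lower. It stood at log2 levels of 10.21 and 10.14 in lungs, from 7.54 over 8.76 to 9.31 in Rb/p53 tumours, and at 8.68, 8.59 and 8.73 in Rb/p53/p130 tumours. On the log2 scale it changed by -1.51 ± 0.36 (limma adjusted p = 0.00485) and by -1.51 ± 0.43 (adjusted p = 0.0178). The direction turned with the Gapdh covariate, to 0.06 and 0.15, and both calls were lost without normal lung 1, the second also without normal lung 2. Slc7a4, a relative whose substrate is not settled, fell by 1.17 ± 0.25 and 1.04 ± 0.29 on the log2 scale (adjusted p = 0.00182 and 0.0162), and its second call was lost without either lung. The branch thus split, each of its 5 members with the same direction in both genotypes.

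The heavy chain Slc3a2, which brings most SLC7 light chains to the cell surface, was lower in tumours. Its log2 level was 11.24 and 11.78 in lungs, ran from 10.07 over 10.50 to 11.20 in Rb/p53 tumours and was 10.49, 10.33 and 10.88 in Rb/p53/p130 tumours. The groups did not overlap, though tumour 2 (11.20) came close to the lower lung (11.24). Slc3a2 changed by -1.01 ± 0.23 (2.02-fold lower, limma adjusted p = 0.00353) and -0.95 ± 0.27 (adjusted p = 0.0194), and both calls were lost without normal lung 2 (adjusted p = 0.109 and 0.205), the second also without tumour 11 or 12. The heavy chain Slc3a1, partner of Slc7a9 and Slc7a13 in kidney and gut, had every group mean at or below the floor, with log2 changes of -0.17 and -0.03 that were not called.

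The light chains moved in both directions. Of 10 measured, 1 rose and 4 fell in Rb/p53 tumours, and 1 rose and 3 fell in Rb/p53/p130 tumours. Slc7a10, an exchanger of small neutral amino acids and D-serine, fell furthest: its log2 level was 9.33 and 9.76 in lungs, from 5.04 over 5.54 to 6.45 in Rb/p53 tumours, and 5.50, 5.72 and 5.36 in Rb/p53/p130 tumours. No tumour came near the lungs, and Slc7a10 changed by -3.84 ± 0.32 (14.4-fold lower, limma adjusted p = 4.62e-07) and -4.01 ± 0.38 (16.2-fold lower, adjusted p = 2.34e-06). Both calls held with the Gapdh covariate, at -3.65 and -3.81.

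Slc7a7, which exports cationic amino acids in return for neutral ones and is known from macrophages and gut, fell by 1.69 ± 0.22 (limma adjusted p = 2.74e-05) and 1.43 ± 0.25 (adjusted p = 0.000738) on the log2 scale. In Rb/p53/p130 tumours the mean of its probe sets changed by -0.94, also called. Slc7a8, an exchanger of large and small neutral amino acids, fell by 1.09 ± 0.19 and 1.16 ± 0.22. Slc7a6, a close relative of Slc7a7 with the same exchange, went the other way. Its log2 levels in lungs were 8.68 and 8.23; they ran from 8.65 over 9.88 to 10.15 in Rb/p53 tumours, and were 10.11, 9.89 and 9.95 in Rb/p53/p130 tumours. Tumour 10 (8.65) lay between the lungs and every other tumour lay above both. The change was 1.23 ± 0.31 (adjusted p = 0.00704) and 1.53 ± 0.37 (adjusted p = 0.00667), and both calls were lost without normal lung 2.

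Slc7a5, the carrier of leucine and other large neutral amino acids that many tumours raise, was not called. It was at log2 levels of 7.49 and 8.19 in lungs, from 7.65 over 9.10 to 10.39 in Rb/p53 tumours, and at 9.27, 8.67 and 9.26 in Rb/p53/p130 tumours. The log2 change was 1.23 in both genotypes (limma adjusted p = 0.0726 and 0.149). The 95% intervals from the SE and a normal quantile were 0.26 to 2.20 and 0.08 to 2.37. They are narrower than intervals from limma's t distribution, and the unadjusted limma p in Rb/p53/p130 tumours was not under 0.05. Tumours 6 (8.17) and 10 (7.65) did not exceed the higher lung.

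Across the 10 Rb/p53 tumours, the levels of a heavy chain and its known light chains were compared in 8 pairs, and none passed a permutation test after Benjamini-Hochberg adjustment. Slc3a2 with Slc7a11, the cystine-glutamate exchanger, gave Pearson's r = 0.805 (permutation p = 0.0233, adjusted 0.186) and Spearman's rho = 0.467 (permutation p = 0.177, adjusted 0.354), and r was 0.151 without tumours 1 and 2, the farthest from the median of Slc3a2. Tumour 2 was the highest in both genes (log2 levels of 11.20 and 8.41), while Slc7a11 read 4.43 in tumour 1, below the floor. Slc7a11 was above the floor on only 3 of 15 arrays. With each tumour left out in turn, r of this pair ran from 0.293 to 0.853. Slc3a2 with Slc7a7 gave r = 0.522 (permutation p = 0.121, adjusted 0.323) and rho = 0.794 (permutation p = 0.00875, adjusted 0.0700), and r was 0.857 without tumours 1 and 2. Without tumour 2 alone the pair passed, with r = 0.882 and an adjusted permutation p = 0.0108.

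Of the 5 high-affinity glutamate transporters, 2 fell in both genotypes and 0 rose. Slc1a1, the neuronal and epithelial carrier of glutamate, aspartate and cysteine, was at log2 levels of 8.87 and 9.17 in lungs, from 5.18 over 6.35 to 7.75 in Rb/p53 tumours, and at 6.72, 6.55 and 7.44 in Rb/p53/p130 tumours. All 13 tumours lay below the lungs, with log2 changes of -2.65 ± 0.51 (6.29-fold lower, limma adjusted p = 0.000918) and -2.12 ± 0.60 (adjusted p = 0.0172), the second lost without either lung, tumour 11 or tumour 12. With the Gapdh covariate these were -0.55 and 0.10, neither called.

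Slc1a3, the glutamate carrier of astrocytes, stood at 9.03 and 8.29 in lungs, from 5.85 over 6.43 to 6.91 in Rb/p53 tumours, and at 6.25, 6.24 and 6.00 in Rb/p53/p130 tumours on the log2 scale. The groups did not overlap. The change was -2.32 ± 0.24 (limma adjusted p = 4.35e-06) and -2.50 ± 0.29 (adjusted p = 1.51e-05). The size depends on the probe set: this one carries a suffix that marks possible binding to other transcripts, another read 8.39 and 8.38 in lungs and 4.34 to 5.09 in Rb/p53 tumours, and the brightest without such a suffix changed by -0.57 (adjusted p = 0.0155) and -0.54 (adjusted p = 0.0556). Slc1a2, the main glutamate carrier of forebrain astrocytes, was not called (-1.22 ± 0.53, adjusted p = 0.0965, and -1.24 ± 0.63, adjusted p = 0.176). Its log2 level was 7.77 in tumour 8, above both lungs (6.85 and 6.38), and at most 5.31 in the other 9 Rb/p53 tumours. Without tumour 8 both changes were called, at -1.49 (adjusted p = 1.0e-05) and -1.24 (adjusted p = 0.000269). Tumour 8 was singled out by its value, and without it the SD over Rb/p53 tumours fell from 0.852 to 0.179. The smaller p-values follow in part from that choice and are no separate support. The other probe sets of Slc1a2 overlapped between lungs and Rb/p53 tumours. The brightest of these read 5.29 and 5.39 in lungs and 5.14 to 5.72 in Rb/p53 tumours.

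Of the 2 neutral exchangers of SLC1, 1 was called. Slc1a4, a carrier of serine, alanine and cysteine, was lower in Rb/p53/p130 tumours (-1.09 ± 0.33, limma adjusted p = 0.0254) and not called in Rb/p53 tumours (-0.65 ± 0.28, adjusted p = 0.0939). The log2 levels were 9.97 and 9.14 in lungs and 8.60, 8.24 and 8.55 in Rb/p53/p130 tumours. Among Rb/p53 tumours it was 9.88 in tumour 2 and 8.38 to 9.03 in the rest, so that 1 tumour stood inside the range of the lungs. Without tumour 2 Slc1a4 was called in Rb/p53 tumours too, at -0.76 (adjusted p = 0.00906). Tumour 2 was singled out by its value, and without it the SD over Rb/p53 tumours fell from 0.390 to 0.202. The call in Rb/p53/p130 tumours was lost without normal lung 1 or tumour 12, and with the brightest probe set free of a suffix (-0.48, adjusted p = 0.148), and the mean of its probe sets changed by -0.70 (adjusted p = 0.0431). Slc1a5, the glutamine exchanger that many tumours raise, changed by -0.36 ± 0.36 and 0.21 ± 0.42, neither called.

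Of 9 measured SLC38 members, 3 rose and 1 fell in the Rb/p53 group, and 2 rose and 0 fell in the Rb/p53/p130 group. Slc38a1, a sodium-coupled glutamine carrier of neurons, was at log2 levels of 9.86 and 9.34 in lungs, from 11.45 over 11.78 to 12.32 in Rb/p53 tumours, and at 11.85, 11.63 and 11.91 in Rb/p53/p130 tumours. Lungs and tumours did not overlap. It rose by 2.24 ± 0.19 on the log2 scale (4.72-fold, limma adjusted p = 4.76e-07) and 2.20 ± 0.22 (adjusted p = 4.57e-06), kept with the Gapdh covariate at 2.86 and 2.85. Slc38a2, the related carrier that cells raise when amino acids run short, rose by 0.75 ± 0.16 (adjusted p = 0.00238) and 0.73 ± 0.19 (adjusted p = 0.011), calls that were lost without normal lung 2.

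Slc38a4, which carries neutral and cationic amino acids in liver, fell in Rb/p53 tumours. Its log2 levels were 7.66 and 8.15 in lungs, from 4.36 over 5.04 to 6.70 in Rb/p53 tumours, and 5.04, 7.56 and 7.46 in Rb/p53/p130 tumours. The change of -2.72 ± 0.61 (limma adjusted p = 0.00307) was called in Rb/p53 tumours but lost without normal lung 2, and that of -1.22 ± 0.72 (adjusted p = 0.253) in Rb/p53/p130 tumours was not. Hepatocyte markers (10 genes) had a mean log2 level of 9.86 in Rb/p53/p130 tumour 12 and 7.45 in Rb/p53 tumour 2, where Slc38a4 read 7.56 and 6.70, and 5.80 in Rb/p53/p130 tumour 13, where it read 7.46. The part of those markers in the level of Slc38a4 was not tested. Slc38a1, Slc38a2 and Slc38a4 are neighbours on chromosome 15 with no protein-coding gene between them, and in Rb/p53 tumours the first pair rose and the third fell.

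Of the 4 proton-coupled carriers 2 were higher and 1 lower in both genotypes. Slc36a1, which exports amino acids from lysosomes and takes part in growth signalling by mTORC1, was at log2 levels of 8.21 and 8.02 in lungs, from 8.74 over 9.96 to 10.42 in Rb/p53 tumours, and at 9.99, 9.98 and 9.99 in Rb/p53/p130 tumours. All tumours lay above the lungs, with log2 changes of 1.72 ± 0.32 (3.30-fold, limma adjusted p = 0.000682) and 1.87 ± 0.37 (adjusted p = 0.00182). Slc36a2, a glycine and proline carrier, was at 9.34 and 9.03 in lungs, from 5.29 over 6.17 to 7.03 in Rb/p53 tumours, and at 6.33, 6.31 and 5.84 in Rb/p53/p130 tumours, with changes of -2.99 ± 0.35 (7.95-fold lower, adjusted p = 1.22e-05) and -3.02 ± 0.41 (adjusted p = 7.42e-05). The genes Slc36a3, Slc36a2 and Slc36a1 are neighbours on chromosome 11, and Slc36a3 changed by 0.11 and -0.05, not called.

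Slc7a10 and Slc36a2 are both known as surface proteins of adipocytes. A list of 6 measured adipocyte markers, written after these values were seen, held 4 genes lower in the Rb/p53 group and 5 in the Rb/p53/p130 group, with a mean log2 level of 7.51 and 8.03 in lungs and 6.06 to 6.74 in Rb/p53 tumours. The adipocyte list was highest in tumour 4 (6.74), where Slc7a10 read 5.45 and Slc36a2 6.12, beside Rb/p53 medians of 5.54 and 6.17. The Rb/p53 tumours 3, 5, 6 and 10 were the 4 highest for alveolar type 1, alveolar type 2, endothelial and club cell markers. They were also the 4 highest for Slc7a10, Slc36a2, Slc6a14 and Slc7a8, the only ones of 65 members to match in full. Of the others that fell in Rb/p53 tumours, Slc1a1, Slc1a3, Slc3a2, Slc6a4, Slc7a4, Slc7a7 and Slc7a15 had 3 of these tumours among their 4 highest. Slc7a2, Slc38a4 and Slc6a2 had 2, and Slc6a19 had 1. Of the members called higher, Slc36a1 also had 3 and the rest had fewer. The share of all genes that match was not computed. The part of adipocytes or of these lung cells in the levels was not tested.

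Among the SLC6 members for amino acids, Slc6a17, a carrier of neutral amino acids into synaptic vesicles, rose. It was at log2 levels of 6.30 and 6.69 in lungs, from 7.65 over 8.09 to 8.36 in Rb/p53 tumours, and at 7.90, 7.81 and 7.45 in Rb/p53/p130 tumours, with no overlap. It rose by 1.61 ± 0.17 (3.04-fold, limma adjusted p = 4.45e-06) and 1.22 ± 0.20 (adjusted p = 0.000366) on the log2 scale, while its other probe sets changed by 0.15 (not called) and 0.51 (called) in Rb/p53 tumours. The mean of its probe sets changed by 0.76 and 0.56, both called. Slc6a14, a broad carrier of airway and gut epithelium, fell in Rb/p53 tumours by 3.56 ± 0.79 on the log2 scale (adjusted p = 0.00286). The Slc6a14 levels were 9.27 and 9.90 in lungs, from 4.22 over 5.88 to 8.29 in Rb/p53 tumours, and 6.76, 7.21 and 7.67 in Rb/p53/p130 tumours, where the change of -2.37 ± 0.93 was not called (adjusted p = 0.0800). Every tumour lay below the lungs, and the Rb/p53 call was lost without normal lung 2.

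Monoamine transporters clear noradrenaline, serotonin and dopamine, and lung endothelium is known to take up the first pair. Slc6a4, the serotonin transporter, was at log2 levels of 7.08 and 7.23 in lungs, from 5.21 over 5.64 to 6.24 in Rb/p53 tumours, and at 5.83, 5.65 and 5.55 in Rb/p53/p130 tumours. Slc6a4 changed by -1.50 ± 0.21 (2.82-fold lower, limma adjusted p = 7.25e-05) and -1.47 ± 0.25 (adjusted p = 0.000494), with no overlap. Slc6a2, the noradrenaline transporter, was at 7.00 and 8.30 in lungs and at 6.40 to 6.94 in Rb/p53 tumours. It changed by -1.04 ± 0.23 (adjusted p = 0.00242) and -1.01 ± 0.27 (adjusted p = 0.0119), calls that were lost without normal lung 2 for this probe set (-0.39 and -0.36). Another Slc6a2 probe set fell far more: it read 10.07 and 11.47 in lungs, 4.81 to 7.51 in Rb/p53 tumours and 4.79 to 5.30 in Rb/p53/p130 tumours, without overlap, and changed by -5.09 ± 0.55 (adjusted p = 5.54e-06) and -5.64 ± 0.65 (adjusted p = 1.46e-05). It becomes the brightest when the 3 groups weigh equally in the choice. Slc6a3, the dopamine transporter, changed by 0.12 and 0.19, not called, with every group mean at or below the floor. Beside them, endothelial markers fell as given above, and their part in these falls was not tested.

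Carriers that mark inhibitory or excitatory neurons were not called. The GABA carriers Slc6a11, Slc6a12 and Slc6a13 changed by -0.09, -0.12 and 0.69 on the log2 scale in Rb/p53 tumours (limma adjusted p = 0.708, 0.572 and 0.266). Slc6a11 and Slc6a12 had every group mean at or below the floor, so their changes lie within background. The GABA and glycine loader of vesicles, Slc32a1, changed by 0.04 (95% interval from a normal quantile -0.24 to 0.32). Another of its 4 probe sets, however, read 6.05 in tumour 8 and at most 4.57 on every other array. The change was 0.17 and 0.53 for the glutamate loaders Slc17a7 and Slc17a6, the latter with every group mean at or below the floor. Slc17a9, which loads nucleotides into vesicles, changed by -0.17. Of the glycine carriers, Slc6a9 changed by -0.68 (adjusted p = 0.0564) with every tumour below the lungs, and Slc6a5 by 0.45 (adjusted p = 0.667). The taurine carrier Slc6a6 changed by -0.06 and -0.42. The remaining called members had changes below 1 in size and are named to complete the count, after their values were seen. The creatine carrier Slc6a8 was lower in Rb/p53/p130 tumours (-0.66 ± 0.21, adjusted p = 0.0358). Slc36a4, a lysosomal relative of Slc36a1, was called in both genotypes (0.81 and 0.74), and Slc38a10 (0.42), Slc6a19 (-0.38) and Slc7a15 (-0.38) were called in Rb/p53 tumours. Of these calls, that of Slc36a4 in Rb/p53 tumours held without either lung, that of Slc38a10 was lost without normal lung 1, and the others were lost without either. With the mean of all probe sets of a gene, neither Slc38a10 in Rb/p53 tumours (0.09) nor Slc6a8 in Rb/p53/p130 tumours (-0.25) was called, nor was Slc38a10 without suffixed probe sets (0.33, adjusted p = 0.0558).

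Other probe sets gave the same direction where they were called. Of 15 called members with further probe sets above the floor, 21 of 28 such probe sets were called in the same direction in Rb/p53 tumours, 7 were not called and 0 went the opposite way. In Rb/p53/p130 tumours 14 of 23 were called in the same direction and 0 in the opposite one.

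Enzymes and carriers around the members were read in lists. Beside their counts, 18.3% of all genes were called higher and 20.5% lower in Rb/p53 tumours. In Rb/p53/p130 tumours these shares were 15.3% and 15.6%. Whether any list exceeded them was not tested. Of 23 amino acid response genes, which ATF4 controls when amino acids run short or the endoplasmic reticulum is stressed, 7 rose and 3 fell in the Rb/p53 group, and 6 rose and 1 fell in the Rb/p53/p130 group. Mthfd2, an enzyme of mitochondrial folate metabolism, changed by 4.71 ± 0.24 on the log2 scale, Psat1 of serine synthesis by 2.67 ± 0.51 and Asns, asparagine synthetase, by 1.72 ± 0.20 (limma adjusted p = 0.000844 or below). The lipoprotein receptor Vldlr changed by -3.53 ± 0.23 and Cth, which makes cysteine from cystathionine, by -2.44 ± 0.64 (adjusted p = 0.00869). Of 10 genes of glutamate and GABA metabolism 3 were higher and 3 lower, and Gad1, which makes GABA from glutamate, rose by 4.04 ± 0.68 (16.5-fold, adjusted p = 0.00031). Its log2 level was 5.75 and 5.15 in lungs and 8.05 to 10.93 in Rb/p53 tumours. The carriers that load or clear GABA were not called, and Slc6a11 and Slc6a12 were not shown above background. Of 11 genes of cysteine and glutathione metabolism 1 was higher and 4 lower, and of 19 genes by which mTORC1 senses amino acids 4 were higher and 5 lower, among them the arginine sensor Castor1 (-1.22 ± 0.14).

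Of 12 amino acid carriers of other families 2 rose and 3 fell in the Rb/p53 group, where 38.8% of all genes were called. Slc43a1, a carrier of large neutral amino acids, rose by 2.07 ± 0.64 (limma adjusted p = 0.0212), and its relative Slc43a3, known to carry purine bases, fell by 3.07 ± 0.44. Of 7 other transmitter carriers 2 were higher and 1 lower, and the vesicular monoamine transporter Slc18a1 rose by 2.52 ± 0.68 (adjusted p = 0.0102) in Rb/p53 tumours and 3.75 ± 0.80 (adjusted p = 0.00297) in Rb/p53/p130 tumours.

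Between the tumour genotypes, 0 of 65 members were called by limma, where 0.0715% of all genes were (0.022% higher and 0.0495% lower in Rb/p53/p130 tumours). At an unadjusted p under 0.05 there were 7 members (10.8%), beside 7.26% of all genes, and a limma fit with a trended and robust prior also called 0. The smallest p belonged to Slc38a4, with a log2 change of 1.51 ± 0.52 (adjusted p = 0.312), and its arrays overlapped, from 4.36 to 6.70 against 5.04, 7.56 and 7.46. The 95% interval from the SE and a normal quantile ran from 0.48 to 2.53, narrower than 1 from limma's t distribution. Arrays did not overlap for 1 member, Slc17a5, the lysosomal sialic acid carrier, beside 1.97% of all genes. Its log2 level was 9.29, 9.21 and 9.51 in Rb/p53/p130 tumours and 9.53 to 10.15 in Rb/p53 tumours, a log2 change of -0.34 ± 0.13 (adjusted p = 0.349).

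Among the 10 Rb/p53 tumours the members varied about as much as other genes, with a median SD of 0.270 on the log2 scale beside 0.284 over all genes. The 6 most variable were Slc6a20a (SD 1.54), Slc6a14 (1.27), Slc7a11 (1.22), Slc6a15 (1.22), Slc17a6 (1.12) and Slc6a5 (1.03), all above the 96th percentile of the SDs of all genes. In Slc7a11 and Slc17a6 a single tumour made most of the spread. Their SDs were 0.364 without tumour 2 and 0.422 without tumour 8. Without the tumour farthest from the median, the SD was 0.887 for Slc6a20a (tumour 7) and 0.815 for Slc6a5 (tumour 7). It was 1.05 for Slc6a14 (tumour 5) and 1.12 for Slc6a15 (tumour 2).

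**Figure D3:**
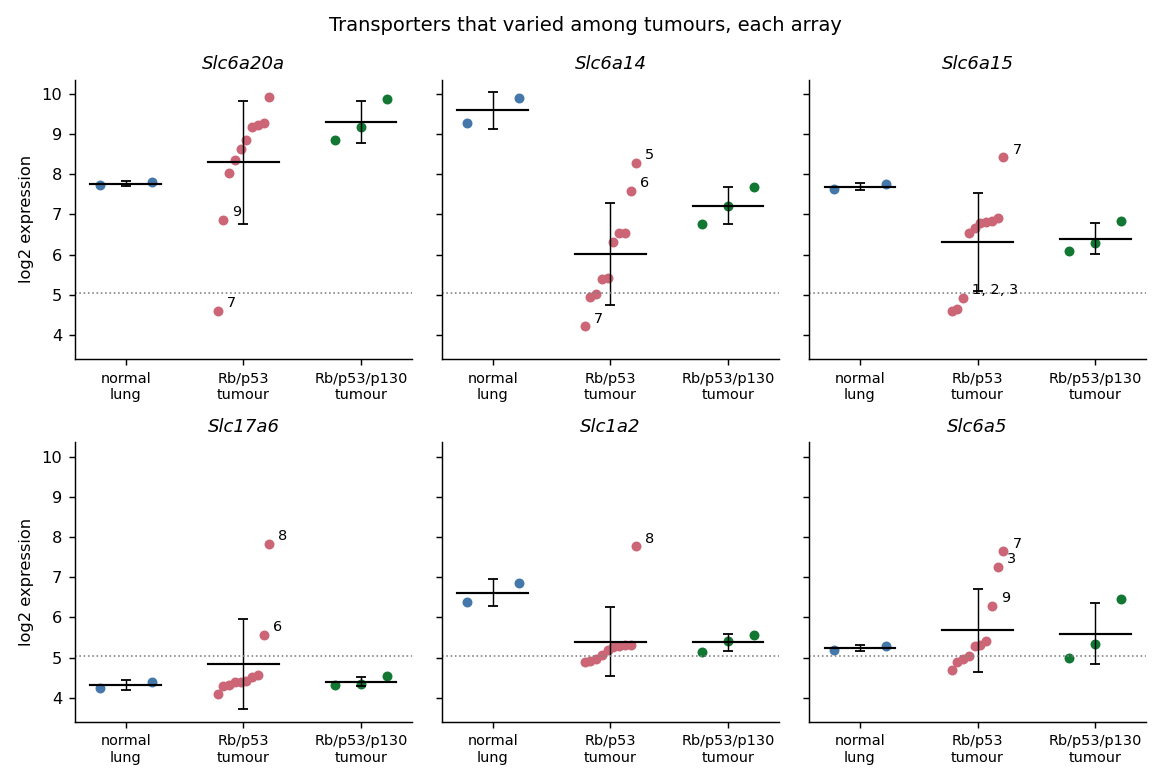
Log2 expression (vertical axis) on each array of 6 members that varied among Rb/p53 tumours, for normal lung (n = 2), Rb/p53 tumours (n = 10) and Rb/p53/p130 tumours (n = 3), with tumour numbers beside the arrays that stand apart. Horizontal bars are group means, error bars SD and the dotted line the floor of 5.05. Slc17a6 and Slc1a2 each stand out in tumour 8, at 7.83 and 7.77.

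Slc6a20a, a carrier of proline and other imino acids, was at a log2 level of 4.61 in tumour 7, not shown above background, 6.87 in tumour 9 and 8.02 to 9.93 in the other 8 Rb/p53 tumours. The Rb/p53/p130 tumours (8.86, 9.18 and 9.87) lay above both lungs (7.72 and 7.81). Slc6a15, a brain carrier of branched-chain amino acids and proline, went the other way in tumour 7, where it was highest at 8.42. It was 4.65, 4.60 and 4.92 in tumours 1, 2 and 3 and 6.53 to 6.90 in the other 6, beside 7.75 and 7.63 in lungs. Both genes were read from 1 probe set.

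Slc17a6, which loads glutamate into vesicles of excitatory neurons, was at 7.83 in tumour 8, 5.57 in tumour 6 and at most 4.57 in the other 8 Rb/p53 tumours, on the log2 scale. Its second probe set was also highest in tumour 8, at 5.42, and at most 4.22 in the rest. Slc6a5, the glycine carrier of inhibitory neurons, was at 7.64 in tumour 7, 7.26 in tumour 3 and 6.29 in tumour 9, at most 5.41 in the other 7, and at 6.45 in Rb/p53/p130 tumour 11. A second probe set of Slc6a5 was below background on every array (4.38 to 4.89 in Rb/p53 tumours). For Slc1a2 in tumour 8 the further 4 probe sets were not raised in that tumour, with log2 levels of 5.19, 4.56, 5.09 and 3.75. Slc6a5 and Slc17a6 lie near each other on chromosome 7 with 3 protein-coding genes between them, and their high tumours differed.

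Tumour 2 held the highest log2 level of the 10 Rb/p53 tumours for 14 of 65 members (21.5%), beside 11.5% of all genes. Tumour 3 held as many, beside 15.2% of all genes. The members highest in tumour 2 included Slc7a11, whose cystine uptake feeds glutathione, with 8.41 beside 4.30 to 5.45 in the other 9 Rb/p53 tumours, 4.68 and 4.06 in lungs and 4.99, 4.62 and 4.56 in Rb/p53/p130 tumours. A second probe set of Slc7a11 read 7.50 in tumour 2 and at most 5.47 elsewhere. Tumour 3 (5.45 and 5.47) was the next highest in both probe sets. Its partner Slc3a2 was at 11.20 in tumour 2 and at most 10.61 in the other Rb/p53 tumours.

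The carriers Slc7a5 (10.39), Slc7a1 (11.98), Slc7a3 (9.86), Slc1a4 (9.88) and Slc6a9 (8.93) also had their highest Rb/p53 log2 level in tumour 2. So did Slc38a4, Slc38a9, Slc6a17, Slc6a12, Slc6a18, Slc7a13 and Slc32a1, some by little. Slc7a13 read 6.11 beside at most 6.10 in the other Rb/p53 tumours, and Slc6a17 8.36 beside at most 8.33. Slc6a12 lay below the floor on every array, and Slc6a18 had every group mean below it. Another probe set of Slc32a1 was highest in tumour 8, as given above. The counts of highest levels ask for no margin and no level above the floor. Of 23 amino acid response genes 12 (52.2%) were highest in tumour 2. The stress factor Atf3 read 11.91 beside 7.91 to 9.90 in the other 9 tumours, Trib3, an inhibitor of ATF4 signalling, 10.53 beside 7.68 to 8.97, and Chac1, which breaks down glutathione, 9.54 beside 7.34 to 8.47. Ddit3, a factor of endoplasmic reticulum stress, read 10.55 beside 8.47 to 9.85. The mean log2 level of the response list was 10.18 in tumour 2, 9.12 to 9.68 in the other 9, 8.95 and 8.97 in lungs, and 9.74, 9.37 and 9.23 in Rb/p53/p130 tumours.

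**Figure D4:**
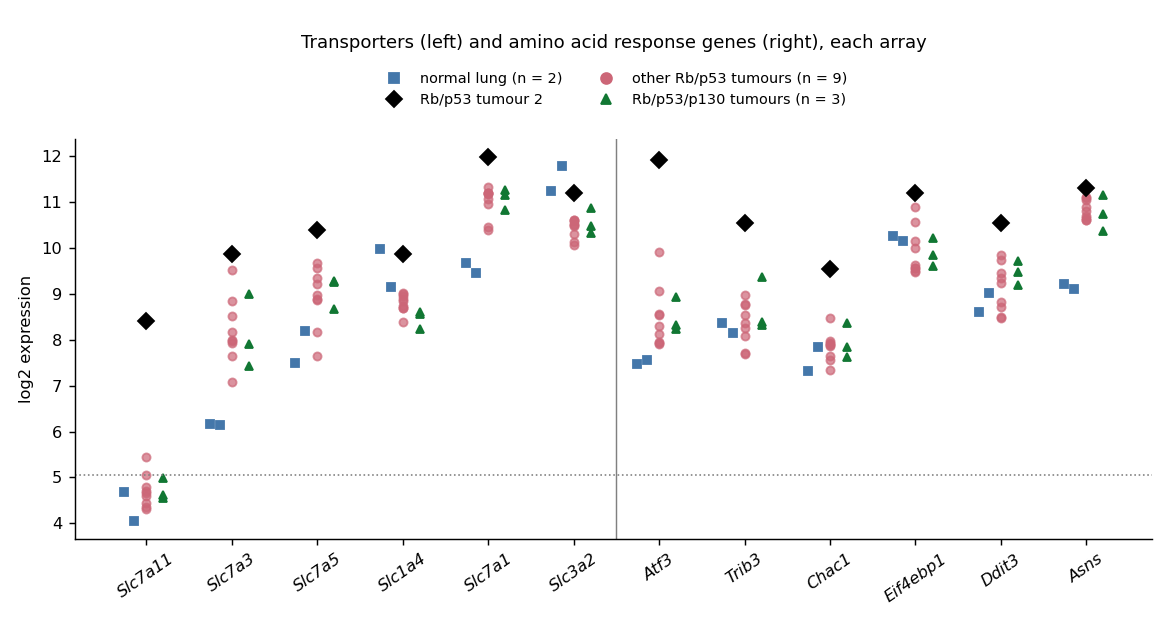
Log2 expression (vertical axis) of 6 transporters (left) and 6 amino acid response genes (right) on each array, with Rb/p53 tumour 2 as black diamonds, the other 9 Rb/p53 tumours as pink circles, normal lungs as blue squares and Rb/p53/p130 tumours as green triangles. The dotted line is the floor of 5.05. Slc7a11 is at 8.41 in tumour 2 and at most 5.45 on every other array.

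Tumour 2 was also above the other Rb/p53 tumours in hepatocyte markers, with a mean log2 level of 7.45 beside 5.55 to 6.24. Rb/p53/p130 tumour 12 was higher in these markers (9.86), and there Slc7a11 read 4.62, below the floor. The 3' minus 5' Gapdh difference of tumour 2 was 0.145, inside the range of the others. Since tumour 2 was singled out by its values, no test is given.

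Promoters of the members high in tumour 2 are shown for the element to which ATF4 binds, the amino acid response element TGATGNAA, searched on both strands. It was found in 3.97% of 32851 windows of all genes and in 6 of 70 member windows (8.57%). Per gene, it was in 4.51% of all genes with a window, in 7 of 22 response genes and in 5 of 48 members (10.4%): Slc7a11, Slc1a4, Slc7a7, Slc17a1 and Slc6a21. Of the 14 members highest in tumour 2 by any margin, 10 have a window and 2 hold the element, beside 3 of 38 other members. The 3 windows below are from RefSeq (GRCm38.p6), each 250 bases before and 50 after the start, written along the gene's minus-strand direction, with the element in capitals. Slc7a11 (chr3:50443564-50443863) holds it at bases 185 to 192 and, on the opposite strand, at 204 to 211, Slc1a4 (chr11:20332664-20332963) at 247 to 254 on the opposite strand, and Slc3a2 (chr19:8713848-8714147), shown for contrast as the partner of Slc7a11, has no match.
Slc7a11 promoter: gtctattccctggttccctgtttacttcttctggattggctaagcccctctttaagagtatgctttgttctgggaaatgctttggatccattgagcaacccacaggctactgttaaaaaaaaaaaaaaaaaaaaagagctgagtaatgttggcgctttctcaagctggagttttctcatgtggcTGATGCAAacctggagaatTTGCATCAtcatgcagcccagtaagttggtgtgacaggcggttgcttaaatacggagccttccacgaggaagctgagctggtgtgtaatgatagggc
Slc1a4 promoter: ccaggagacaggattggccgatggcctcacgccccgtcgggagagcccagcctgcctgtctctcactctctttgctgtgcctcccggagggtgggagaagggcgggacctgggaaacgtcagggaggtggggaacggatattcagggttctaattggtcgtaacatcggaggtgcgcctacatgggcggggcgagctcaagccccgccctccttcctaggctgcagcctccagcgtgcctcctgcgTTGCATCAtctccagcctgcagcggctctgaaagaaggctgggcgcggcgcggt
Slc3a2 promoter: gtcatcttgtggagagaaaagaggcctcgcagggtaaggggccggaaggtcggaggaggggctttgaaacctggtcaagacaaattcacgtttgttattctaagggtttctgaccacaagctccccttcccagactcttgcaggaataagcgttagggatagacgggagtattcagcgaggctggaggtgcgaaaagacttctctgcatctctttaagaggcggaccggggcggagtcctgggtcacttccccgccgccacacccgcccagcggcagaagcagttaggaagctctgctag

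A match describes letters in this window and is not evidence of binding. Slc7a7 also holds the element and was at 6.40 in tumour 2, near the median of 6.39 over the 10 Rb/p53 tumours. The other motifs searched were TGACGTCA (1.79% of all windows, 1 of 70 member windows), TTTGGCGC (0.514%, 0 of 70), TTTCGCGC (0.323%, 1 of 70, that of Slc32a1) and TGACNNNGC (12.4%, 10 of 70).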

How the data were processed

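Total RNA was isolated with Trizol and amplified in 2 rounds with a RiboAmp kit, per the labels' protocols, and hybridised to Affymetrix mouse genome arrays. The deposited values are log2 expression per probe set, and the submitters' processing notes name RMA, with no version. RMA sets the arrays' distributions nearly equal (medians 6.58 to 6.68), which hides any shift common to most genes, and amplification favours 3' ends. The number of arrays limits the precision.

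Of 45101 probe sets, 64 controls were left out. A probe set named a gene where the platform annotation gave 1 symbol (34945 probe sets), updated through the RefSeq table (GRCm38.p6, 34741 matched). Groups came from the labels. All 3 groups entered 1 fit in limma 3.58.1 (R 4.3.3, lmFit and eBayes), adjusted by Benjamini-Hochberg and called at 0.05, after tests on simulated data. Correlations used 100000 two-sided permutations. A fold is given as "at least" where the lower group mean lay at or below the floor, which then replaced lower values.

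Named are members called with a log2 change of at least 1, the smallest p between genotypes, the 6 most variable members, partners in known complexes or transmitter classes, and at most 5 genes of a pathway list. Members and lists were chosen with earlier results of these data known, and the adipocyte list and the fits without the 2 arrays highest in hepatocyte markers were added after values were seen. Alternatives were other normalisation, filters, priors, probe set choices, groups in the fit, a Gapdh covariate, a replicate block and leaving out each array. Protein sequences were not used here.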

Additional observations from a re-analysis of the deposited data

Results flagged for a closer look

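In the 10 Rb/p53 tumours, 8 of 65 members (12.3%) had 1 tumour whose gap to its nearest neighbour exceeded Dixon's critical share of the range (0.466), where chance gives about 1 group in 20. By the same rule 8.81% of all 18193 genes had such a tumour. Tumour 2 was the one that stood apart in 4 of them, highest for Slc7a11 (8.41), Slc3a2 (11.2) and Slc1a4 (9.88) and lowest for Slc38a7 (6.34), a glutamine carrier of the lysosome. Tumour 8 was highest for Slc17a6 (7.83) and Slc1a2 (7.77). Tumour 3 was highest for Slc17a5 (10.15), and tumour 9 was lowest for Slc6a7 (5.81), the brain proline carrier. All are log2 levels.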

How the results depend on the processing

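The count of called members stayed within 1.5 times of its main value under every alternative run except the Gapdh covariate and the loss of normal lung 2. With the Gapdh covariate it was 6 (4 higher, 2 lower) in Rb/p53 tumours and 3 (2 higher, 1 lower) in Rb/p53/p130 tumours, and 3 called changes turned sign: Slc7a2 to 0.062 in Rb/p53 and 0.15 in Rb/p53/p130 tumours, and Slc1a1 to 0.10 in Rb/p53/p130 tumours; the cause was not tested. Leaving out each array in turn gave 17 to 27 in Rb/p53 tumours and 12 to 23 in Rb/p53/p130 tumours, both lowest without normal lung 2, when the lone lung is assumed to vary like the tumours. Of 47 called results on members, 22 kept their call under every alternative but the Gapdh covariate and 7 kept it with that covariate. Those 7 were Slc38a1, Slc7a10 and Slc7a14 in both genotypes and Slc6a17 in Rb/p53 tumours, so the 6 above include members not called without it. Fitting only the 2 groups compared gave 29 calls in Rb/p53/p130 tumours. Without the 2 arrays highest in hepatocyte markers, an alternative added after the data were seen, 27 and 17 were called. Between genotypes 0 were called under every alternative run. The correlation of Slc3a2 with Slc7a7 ran from 0.382 to 0.882 when each tumour was left out, and passed without tumour 2 (0.882). Array numbers 1 and 2 are shared by Rb/p53 tumours and lungs, and whether they pair these arrays is not known. Correlations of deviations (-0.004 and -0.055) cannot decide it, since the deviations of 2 lungs from their mean mirror each other. With the number as a replicate block 20 members were called (8 higher, 12 lower). With 2 lungs, small changes cannot be told from their spread.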
